A study of Mus musculus with 32 samples.

Results

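The nuclear machinery that cuts pre-mRNA and adds the poly(A) tail was examined through 10 of its genes in the somas and dendrites of single hippocampal neurons. The genes are 4 subunits of the cleavage and polyadenylation specificity factor (Cpsf1, Cpsf2, Cpsf3 and Cpsf4), the cleavage factor Im genes Nudt21 and Cpsf6, the cleavage stimulation factor genes Cstf2 and Cstf3, and the cleavage factor IIm genes Pcf11 and Clp1. The genes were taken by name as known factors, and all 10 were found in the 3′UTR count table of 44081 genes and in the exon counts of 23453 genes. A further table of 74532 alternative 3′ ends held 28 ends of these genes.

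The neurons came from C57BL/6 mouse embryos at day 18 (E18) and were kept in culture for 15 days, with no treatment or genotype that sets groups apart. For each of 16 neurons, the cell body went into 1 tube and the severed dendrites into another, so that the 32 libraries form 16 pairs. Polyadenylated RNA was amplified with the aRNA method, a linear amplification by in vitro transcription that places most reads near 3′ ends, in 3 rounds for neurons 1 to 4 and in 2 rounds for the other 12. Both libraries of a neuron had the same number of rounds, and ERCC spike-in RNA was labelled for all neurons except 1 and 2. Each neuron gave 1 library per compartment, and the cells were collected over several cultures and days that the labels do not tell apart, so p-values measure the spread between these neurons.

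At the end of a gene, the specificity factor recognises the poly(A) signal AAUAAA and its subunit Cpsf3 cuts the RNA, while the stimulation factor binds U-rich or GU-rich RNA just downstream. Cleavage factor Im binds UGUA upstream of the cut and is known for its part in the choice between proximal and distal poly(A) sites, and cleavage factor IIm couples cleavage to the end of transcription. All of these proteins work mainly in the nucleus, and neurons are known for long 3′UTRs made by use of distal sites.

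The sequences below are the poly(A) signals near annotated 3′ ends of the member whose end usage passed an unadjusted threshold between compartments (Nudt21), of the only member called between compartments (Cstf2), and of Cpsf6, whose 2 main ends were also compared. They are printed 5′ to 3′ on the transcript strand from GENCODE vM21 (GRCm38, the build of mm10), with the hexamer AATAAA or ATTAAA in capitals.
Nudt21-201: ctgttatttcAATAAAaatatttaaa
Nudt21-202: taagtttctcATTAAActctgaaaag
Nudt21-204: ttttttgtacATTAAAgaaagtgaat
Cpsf6-201: ttgtattgaaAATAAAaacaaagttt
Cpsf6-206: gtagtgttgtAATAAActgtttatgg
Cstf2-201: tcgtggattcAATAAAtattttaaaa

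The Nudt21 windows lie on the minus strand at chr8:94015502-94015527, chr8:94019410-94019435 and chr8:94019456-94019481, those of Cpsf6 on the minus strand at chr10:117344675-117344700 and chr10:117349044-117349069, and that of Cstf2 on the plus strand at chrX:134086793-134086818. All of them are in the last exon of the named transcript, within its 3′UTR. The annotated end of the first Nudt21 transcript printed, at position 94015496, lies 3909 bases beyond that of the second, and it carries AATAAA. Of the 3 nearer annotated ends, the 2 printed carry ATTAAA and the remaining end carries neither hexamer. Among 29 annotated 3′ ends of protein-coding transcripts of the 10 genes, 13 had AATAAA in the last 50 bases and 5 had ATTAAA without AATAAA, on the transcript strand. The same hexamers were found at 48.2% and 11.6% of 41602 annotated ends of protein-coding transcripts. Only Cpsf1 and Cpsf3 had neither at any annotated end, which says only that these letters are not in that window. TGTA, the DNA letters of the cleavage factor Im element, was in the last 100 bases of 22 of the 29 ends and of 47.3% of all ends, counted on the transcript strand. The deposited table numbers the ends of a gene and gives no positions. These annotated ends were therefore not matched to its end numbers, except that end 1 of Nudt21 was placed at the most 3′ end.

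Dendrites had between 646521 and 6954420 reads on 3′UTRs (median 1605714) and somas between 925525 and 21169974 (median 6165691). The reads carry no molecular identifiers, so counts of reads are not counts of molecules. Of 8 neuronal markers, Map2 had 10 or more reads in all 32 libraries, and Tubb3 and Snap25 in 16 of 16 somas and in 14 and 15 dendrites. The others reached that level in fewer libraries. They were Rbfox3 (9 dendrites, 15 somas), Grin1 (11 and 14), Camk2a (13 and 12), Slc17a7 (13 and 10) and Neurod6 (8 and 8). The summed level of the 5 astrocyte markers ran from 0 to 1216 CPM (counts scaled to the total of each library) in dendrites and from 0.473 to 522 in somas, the 5 oligodendrocyte markers reached 739 and 336, and the 5 microglial markers reached 378 and 9.72, where C1qa had fewer than 10 reads in every library. The 5 endothelial markers reached 99.2 and 130, and Cldn5 had no read in any library. The summed level of 3 nuclear-retained RNAs (Malat1, Meg3 and Snhg11) lay between 0.895 and 2042 in dendrites and between 32.9 and 11967 in somas, and 4 neurons (2, 5, 6 and 12) had more of them in dendrites. The dendrite libraries of neurons 15 and 16 had 1570 and 2485 genes with at least 10 reads, against a median of 6052.5 in dendrites and 9378.5 in somas. The same libraries had the highest shares of mitochondrial reads, 35.8% and 32.4%, against a median of 13.5% in dendrites and 1.05% in somas. The part of these features in the results that follow was not tested, but the count of members called is also given without those neurons.

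Most members were detected in more somas than dendrites. With at least 10 reads taken as detection, a soma held between 3 and 10 of the 10 genes (median 8) and a set of dendrites between 1 and 8 (median 4). The soma held more of them in 12 neurons, the dendrites in 2, and the numbers were equal in the other 2. Of the 160 combinations of gene and neuron, 56 were detected in both compartments, 63 in the soma alone, 12 in dendrites alone and 29 in neither. Expressed as shares, 39.4% were soma only and 7.5% dendrite only, against 34.4% and 6.2% over the 10880 genes that had a read in 16 or more libraries. These shares of the members are near those of all genes. With both libraries of a neuron thinned to the same number of reads, the members had 35.6% soma only and 8.12% dendrite only, against 29.2% and 8.48% for all genes.

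**Figure D1:**
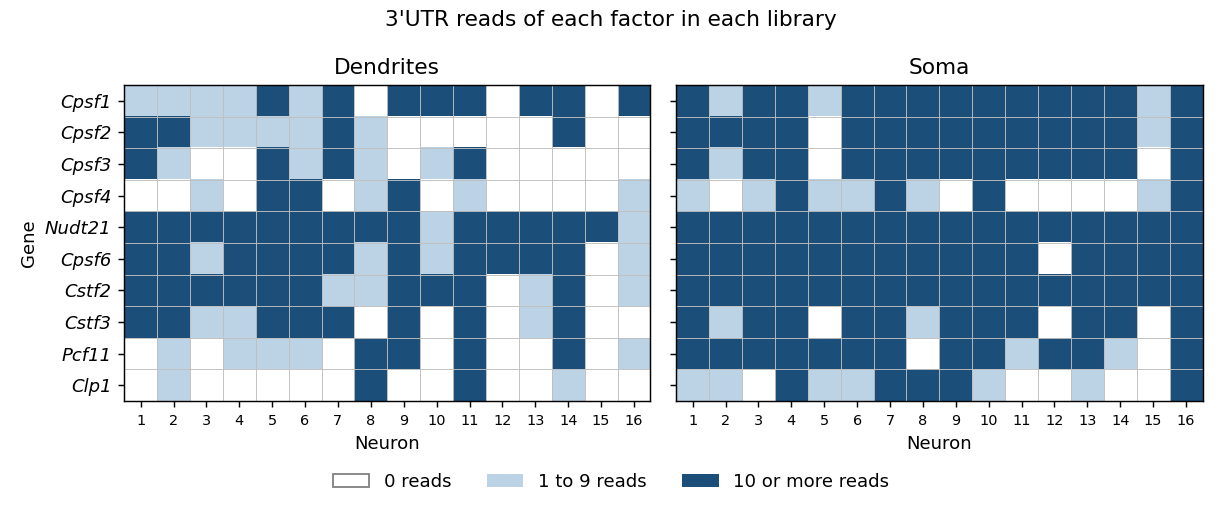
3′UTR reads of the 10 genes (rows) in the dendrite and soma libraries of neurons 1 to 16 (columns), with white for 0 reads, pale blue for 1 to 9 and dark blue for 10 or more. Nudt21 is dark in 14 dendrites and 16 somas, Cstf2 in 10 dendrites and 16 somas, and Cpsf4 and Clp1 are pale or white in most libraries of both compartments.

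Nudt21 was the most widely detected member, with reads in all 32 libraries and at least 10 reads in 14 dendrites and 16 somas. Cstf2 was detected in 16 somas and 10 dendrites, and Cpsf6 in 15 and 11. Cpsf2 and Cpsf3, the paired subunits of the nuclease module, were detected in 14 and 13 somas but in only 4 dendrites each, and Pcf11 in 12 somas and 4 dendrites. Cpsf1 (13 somas, 8 dendrites) and Cstf3 (11 and 8) lay between. Cpsf4 and Clp1 were scarce in both compartments, with Cpsf4 at 10 or more reads in 4 somas and 3 dendrites and in no neuron in both, and Clp1 in 5 somas and 2 dendrites. The shallow dendrites of neuron 15 held only Nudt21, with 19 reads, and those of neuron 16 only Cpsf1, with 10.

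Levels between genes were compared as exon CPM per kilobase of annotated exon, since 3′UTRs differ in length. Most reads lie near 3′ ends, so counts need not grow with exon length, and the order depends on this scaling. Without division by length, the soma median was 84.7 CPM for Cstf2 and 55.2 for Cpsf2, the reverse of their order per kilobase. In somas the order of the medians was Cpsf6 (13.2), Cpsf2 (9.63), Cstf2 (9.22), Cpsf3 (5.15), Cpsf1 (4.71), Cstf3 (4.59), Nudt21 (2.29), Pcf11 (1.24), Clp1 (0.165) and Cpsf4 (0.0712). The ranges between the quartiles over 16 somas overlapped for each pair of neighbours in this order. Within single somas, a gene was above the next one in 8 to 12 of 16. The number was 12 for Cstf2 over Cpsf3 and for Cstf3 over Nudt21. Differences between neighbours were not tested. Cstf2 ran from 4.86 to 25.8, and only Cstf2 and Cpsf1 were above 0 in every soma on this scale. In dendrites Cpsf6 again had the highest median (3.84), followed by Cpsf1 (3.03) and Cstf3 (2.48), but the lowest dendrite was at 0 for each gene. The value of Nudt21 on this scale rests on exon counts that were lower than the reads on its distal 3′ end, as described further on.

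Between compartments, 1 of the 9 members that could be tested was called, and it was higher in somas. The test was edgeR's quasi-likelihood test on 3′UTR counts with the neuron as a block, fitted to 10880 genes, and a gene was called at an adjusted p of at most 0.05. By this rule 5.71% of all genes were called higher in somas and 0.827% higher in dendrites. The called member was Cstf2, and 5 members (Cpsf2, Cpsf3, Cpsf6, Cstf2 and Pcf11) had an unadjusted p under 0.05 and lower dendrite levels, where the share of all genes was 26.7%. Clp1 had reads in 15 libraries, 1 short of the filter, and was not part of this fit. The median log2 fold change of the 9 members, dendrites over somas, was -2.65, against -1.49 for all genes tested, and 6 of the 9 lay below that overall median. A dendrite library holds RNA from all dendrites collected from 1 neuron, so a smaller share of a gene and less RNA of it in that pool cannot be told apart from these counts alone.

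**Figure D2:**
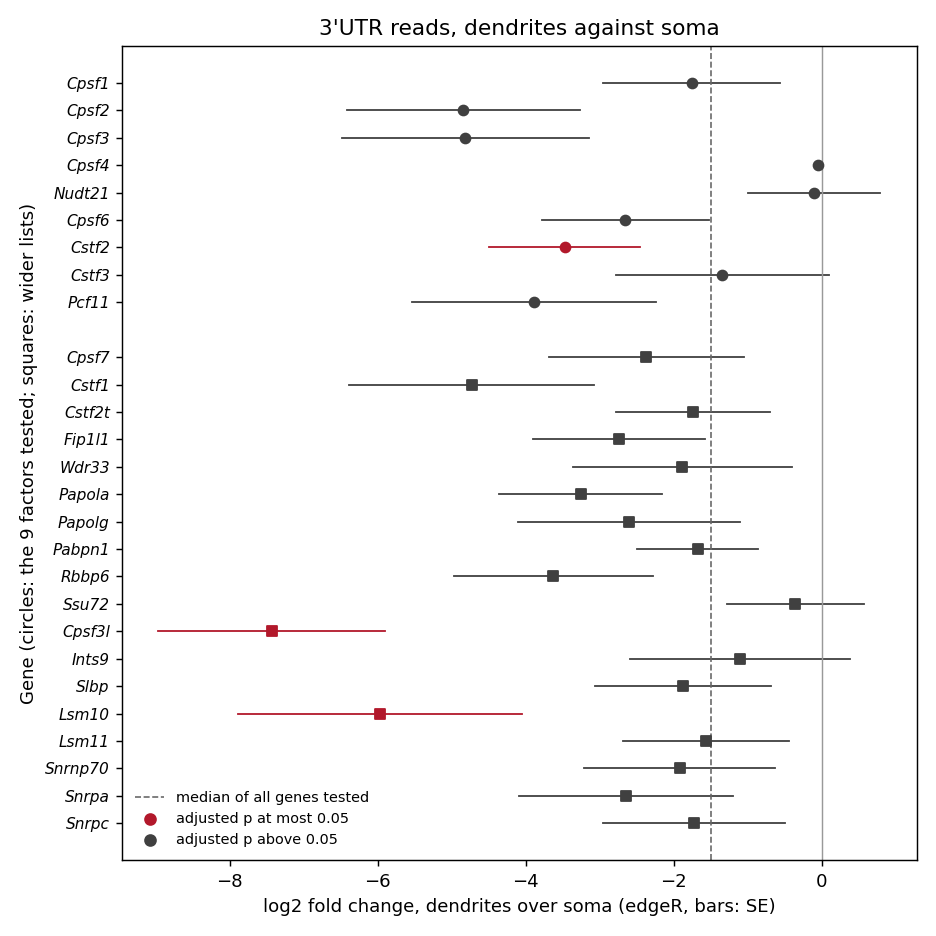
Log2 fold change of 3′UTR reads, dendrites over soma, for the 9 members tested (circles) and the wider lists of 3′ end processing genes (squares), with bars of 1 SE from edgeR and a dashed line at the median of all genes. Cstf2, Cpsf3l and Lsm10, in red, passed an adjusted p of 0.05, while Cpsf4 and Nudt21 lie near 0 (no bar is drawn for Cpsf4).

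The cleavage and polyadenylation specificity factor had no called member. Cpsf1, its scaffold, had between 0 and 312 reads in dendrites (median 8.5) and between 1 and 1207 in somas (median 82.5). Its level in CPM, here and for the other members scaled to library totals with TMM factors, ran from 0 to 127 in dendrites (median 8.32) and from 0.108 to 59.2 in somas (median 23.5). The groups overlapped over the whole soma range, the soma was higher in 12 of 16 neurons, and the log2 fold change was -1.75 (SE 1.20, adjusted p = 0.301), within 0.26 of the median gene.

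Cpsf2, which pairs with the nuclease subunit, had no reads in 7 dendrites and 1 soma, and its level ran from 0 to 162 CPM in dendrites (median 1.93) and from 0 to 140 in somas (median 57.6). The soma was higher in 12 of 16 neurons, with neurons 1, 2, 5 and 7 as the exceptions, so that the groups overlapped. The log2 fold change was -4.84 (SE 1.57, adjusted p = 0.0502, edgeR), just outside the threshold and at percentile 5.07 of all genes tested. It was called when neuron 2, 5 or 7 was left out (lowest adjusted p = 0.0245). On exon counts the log2 fold change of Cpsf2 was -3.51 (SE 1.66, adjusted p = 0.174, edgeR), with dendrites higher in 6 neurons.

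Cpsf3, the endonuclease that makes the cut, had between 0 and 41 reads in dendrites (median 0.5) and between 0 and 1054 in somas (median 150). Its level reached 39.2 CPM in dendrites (median 0.268) and 184 in somas (median 22.7). The soma was higher in 11 of the 15 neurons with reads, and the exceptions were again neurons 1, 2, 5 and 7. Its log2 fold change was -4.81 (SE 1.67, adjusted p = 0.0651), and it was called without neuron 2 or without neuron 5 (lowest adjusted p = 0.0299).

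Cpsf4, a zinc finger subunit that contacts the poly(A) signal, was too scarce for a direction to be given. It had no reads in 9 dendrites and 6 somas, and no more than 92 reads in a set of dendrites and 104 in a soma. The level was higher in the soma in 7 neurons and in dendrites in 5, and the log2 fold change of -0.05 (adjusted p = 0.997) turned positive under several of the other settings.

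The cleavage factor Im genes had unlike values, though the difference between them was not tested. Nudt21, the subunit that binds UGUA, had between 1 and 940 reads in dendrites (median 91.5) and between 44 and 1006 in somas (median 320). Its level ran from 0.58 to 562 CPM in dendrites (median 59.8) and from 23.2 to 117 in somas (median 49.2). The dendrite values enclosed the soma values on both sides, and the dendrites were higher in 9 of 16 neurons. The log2 fold change was -0.10 (SE 0.89, adjusted p = 0.947), which is 1.39 above the median gene and higher than in 77.3% of genes, and its sign changed with the scaling and with the neurons included.

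Cpsf6, the larger partner of Nudt21, had between 0 and 973 reads in dendrites (median 40) and between 0 and 3273 in somas (median 974.5). In CPM it ran from 0 to 375 in dendrites (median 34.2) and from 0 to 331 in somas (median 148). The soma was higher in 12 of 16 neurons, while dendrites were higher in neurons 9, 11, 12 and 14. In neuron 12 the dendrites had 627 reads of Cpsf6 and the soma none. The log2 fold change was -2.65 (SE 1.13, adjusted p = 0.113). For Cpsf7, the alternative large subunit of the factor and not one of the 10 genes, it was -2.37 (SE 1.32, adjusted p = 0.209).

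Cstf2, the RNA-binding subunit of the stimulation factor, had the narrowest range of soma levels relative to its lowest value. It had between 61 and 2174 reads in somas (median 649.5) and between 0 and 167 in dendrites (median 24.5). Its level ran from 53.8 to 204 CPM in somas (median 93.3) and from 0 to 121 in dendrites (median 10.8), and the dendrites lay below the lowest soma except in neurons 1 and 3. The soma was higher in 15 of 16 neurons, and neuron 3 was the exception. The log2 fold change was -3.47 (SE 1.02, adjusted p = 0.0339, edgeR), or 1.98 below the median gene. Leaving out 1 neuron at a time gave values from -3.70 to -2.93, but the call was lost in 9 of the 16 fits (without neuron 1, 3, 7, 8, 12, 13, 14, 15 or 16), where the adjusted p ran from 0.0505 to 0.0907. For Cstf2t, a paralog with a closely related sequence, the log2 fold change was -1.74 (SE 1.05, adjusted p = 0.243), and reads shared by both genes would be lost from counts of uniquely mapped reads.

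Cstf3, the scaffold of the stimulation factor, had no reads in 5 dendrites and 3 somas. Its level ran from 0 to 245 CPM in dendrites (median 12.6) and from 0 to 70.2 in somas (median 30.2), and the highest value came from the dendrites of neuron 9, with 1536 reads. The soma was higher in 8 neurons and the dendrites in 6, and the log2 fold change of -1.34 (SE 1.44, adjusted p = 0.514) was within 0.15 of the median gene.

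Pcf11, which ties cleavage to release of the polymerase, had between 0 and 362 reads in dendrites (median 1) and between 0 and 364 in somas (median 56.5). Its level reached 123 CPM in dendrites (median 0.758) and 89.5 in somas (median 14.2). Both compartments had at least 10 reads in neuron 9 only, whereas 11 neurons had them in the soma alone and neurons 8, 11 and 14 in dendrites alone. Its log2 fold change was -3.89 (SE 1.65, adjusted p = 0.113), or 2.39 below the median gene, but on exon counts it was -1.60 (SE 1.46, adjusted p = 0.484), or 0.33 below. Clp1, a polynucleotide kinase of the same complex, had reads in 11 somas and 4 dendrites, up to 305 and 98, and was left out of the main fit. Without the filter on low counts, its log2 fold change was -2.63 (SE 1.87, adjusted p = 0.575, edgeR).

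**Figure D3:**
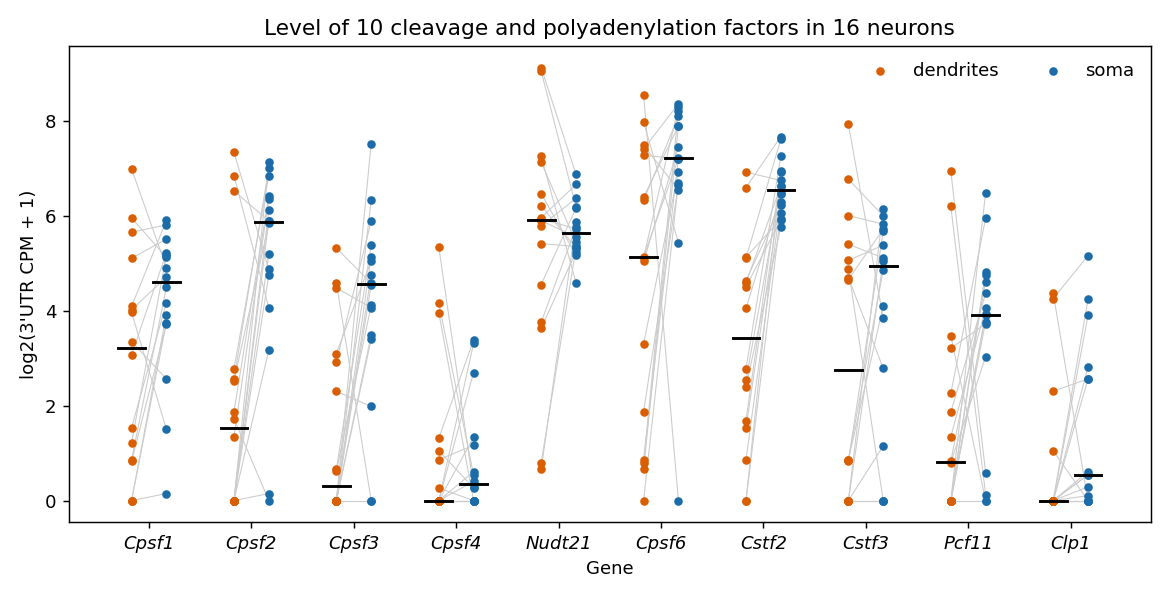
Level of each gene as log2(3′UTR CPM + 1) in the dendrites (orange) and soma (blue) of 16 neurons, with grey lines joining the compartments of 1 neuron and black bars at the medians. The somas of Cstf2 lie close together, between 53.8 and 204 CPM, while the dendrites of every gene reach down to between 0 and 0.58.

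The dendritic read fraction, the share of a gene's normalized reads in a neuron that came from its dendrites, spread widely between neurons for most members. It was computed for neurons with at least 10 reads of the gene in total after scaling by DESeq2 size factors. The median was 0.497 for Nudt21 (0.00926 to 0.843 over 16 neurons), 0.383 for Cstf3 (0 to 1 over 13) and 0.256 for Cpsf1 (0 to 0.89 over 15). Cpsf6 had a median of 0.135 (0 to 1 over 16), and Pcf11 0.0656 (0 to 1 over 15). Cstf2 stayed lowest at the top of its range, from 0 to 0.403 over 16 neurons with a median of 0.077, and its variance of 0.0184 compares with a median variance of 0.105 over 10331 genes. The variances of Cpsf1, Cpsf2, Cpsf3, Cpsf6 and Nudt21, from 0.0835 to 0.1, were also below that median. Those of Cstf3, Clp1, Pcf11 and Cpsf4, from 0.14 to 0.276, were above it. For Cpsf2 and Cpsf3 the medians were 0.0169 and 0.013, with 11 of 14 and 10 of 15 neurons under 0.1. Pcf11 had 10 neurons under 0.1 and 3 over 0.9, and Cpsf4, with values in 6 neurons, had 2 and 3. The median of the medians over all genes was 0.252.

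The exon counts, a second count of the same libraries, gave no called member with edgeR, where 2.62% of 9804 genes were called higher in somas and 1.0% higher in dendrites. An unadjusted p under 0.05 with the higher level in somas was found for 5 members (Cpsf2, Cpsf3, Cpsf6, Nudt21 and Cstf2), against 20.4% of all genes. DESeq2 called 6 members, where it called 46.5% of all genes higher in somas. With edgeR, Cstf2 and Cpsf3 had the smallest p of the members, with log2 fold changes of -2.96 (SE 1.08, adjusted p = 0.0817) and -4.15 (SE 1.58, adjusted p = 0.0939). Scaling the exon counts by the ERCC spike-ins in neurons 3 to 16 lowered the median of all genes from -1.77 to -4.11 on the log2 scale. On that scale 7 of the 9 members were called higher in somas, but so were 62.7% of all genes. On the spike-in scale, the log2 fold change was -6.47 for Cstf2 (adjusted p = 0.000971) and -6.19 for Nudt21 (adjusted p = 0.00909), while Cpsf4 at -1.70 (adjusted p = 0.47) and Cstf3 at -3.44 (adjusted p = 0.0671) were not called.

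Nudt21 was the member whose value depended most on which part of the transcript was counted. On exons its log2 fold change was -3.28 (SE 1.46, adjusted p = 0.147, edgeR), against -0.10 on 3′UTRs. Its exon reads numbered 0 to 45 in dendrites (median 1) and 0 to 295 in somas (median 92.5), far fewer than on its 3′UTRs. Nudt21 (chr8:94015496-94037031, minus strand, GRCm38) ends in RefSeq's gene model 3907 bases before the end of the longest GENCODE transcript, and which annotation the exon counts used is not given in the sources used here. Of the 30 libraries with at least 10 reads on its most distal end, 29 had fewer exon reads than reads on that end. The dendrites of neuron 1, for example, had 114 reads on the most distal end and none on exons.

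The table of single 3′ ends gave 3 numbered ends for Nudt21. The table holds no positions, so end 1 was read as the most distal end of a gene. Where isoform coordinates listed by the study could be compared with GENCODE ends, end 1 lay at the most 3′ end in 140 genes and between ends in 7. Of the last-numbered ends, 8 lay at the most 3′ end, 10 between ends and 23 at the most 5′ end. For the other ends these numbers were 22, 67 and 3, so the reading is not certain for a single gene. End 1 of Nudt21 was one of those at the most 3′ end. For Cpsf3, Cpsf6, Cstf2 and Cstf3 the order of the ends rests on the numbering alone. End 1 took 90.5% of the reads on these ends in dendrites (2077 reads) and 70.7% in somas (4017 reads), and end 3 took 5.36% (123 reads) and 20.6% (1168 reads). End 1 had at least 10 reads in 14 dendrites and 16 somas, whereas end 3 had them in 4 dendrites and 12 somas. For each library, the share of end 1 in the sum of ends 1 and 3 is called the distal fraction (DF), and it was compared in neurons with at least 10 such reads in both compartments. The DF ran from 0.616 to 1 in dendrites (median 0.984) and from 0.58 to 1 in somas (median 0.766), so the groups overlapped. No reads on end 3 were found in 6 of 14 dendrites but in only 1 of 14 somas. The DF leaves out end 2, which had at least 10 reads in 3 dendrites and 5 somas. In the dendrites of neuron 7, with a DF of 1, end 2 had 69 reads and end 1 had 19. The mean over 14 neurons was 0.929 ± 0.111 (SD) for dendrites and 0.789 ± 0.156 (SD) for the soma. The paired difference was 0.140 ± 0.207 (SD, n = 14 neurons, exact Wilcoxon signed-rank test, two-sided, p = 0.0245), with the distal end preferred in dendrites in 10 neurons and in the soma in 4. Neurons 2, 4, 11 and 14 were the 4 exceptions, and in neuron 11 the dendrites had 69 reads on end 1 and 43 on end 3.

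**Figure D4:**
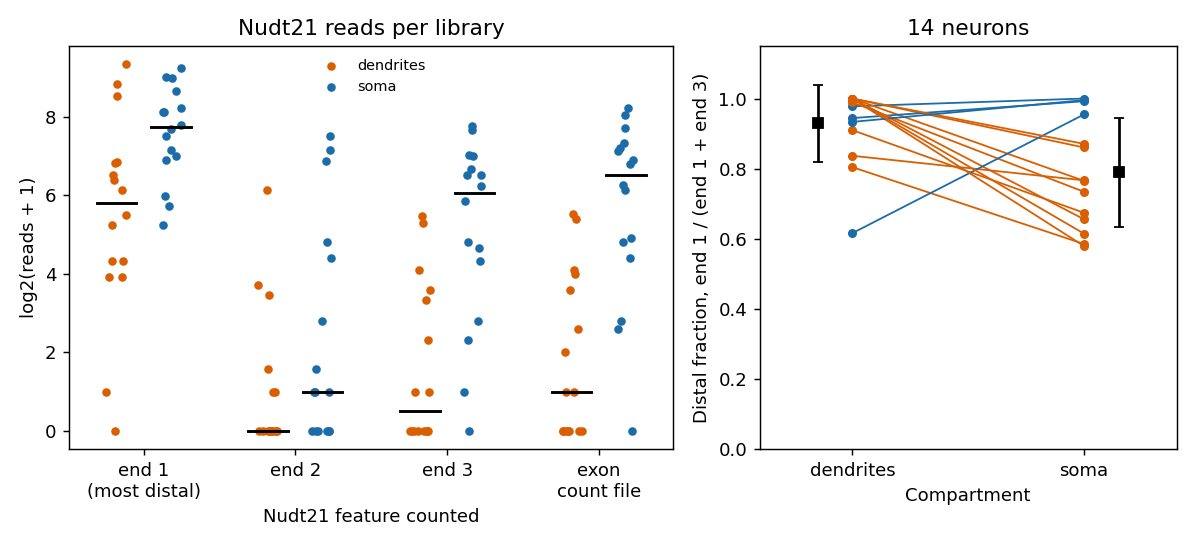
Left, Nudt21 reads per library as log2(reads + 1) on its 3 numbered 3′ ends and in the exon counts, for dendrites (orange) and soma (blue), with medians as bars. Right, the distal fraction in 14 neurons, joined by neuron (orange lines where dendrites are higher), with squares and bars for the mean and SD of 0.929 ± 0.111 in dendrites and 0.789 ± 0.156 in somas.

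The threshold of p under 0.1 for this test was passed by 8.44% of 3508 genes tested, and by 5.42% with the distal end preferred in dendrites. No gene passed after Benjamini-Hochberg adjustment over the 3508 genes, and the adjusted p of Nudt21 was 0.906. The exact sign-flip permutation test of the same differences gave p = 0.0277, and the 10 neurons of 2 rounds alone gave a difference of 0.166 ± 0.23 (SD, n = 10, exact signed-rank test, p = 0.0488). With at least 20 reads in both compartments, 10 neurons remained and the threshold was not passed (difference 0.106, exact signed-rank test, p = 0.131). Without the neurons with more nuclear RNA in dendrites, 10 neurons gave an exact signed-rank p of 0.084. The 4 neurons of 3 rounds were too few for a test of their own. Among them, the DF was higher in dendrites in neuron 1 (1 against 0.86) and neuron 3 (1 against 0.765). It was higher in the soma in neuron 2 (1 against 0.978) and neuron 4 (0.992 against 0.944).

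Another 3 members had enough reads on 2 ends in at least 5 neurons, and none passed with all neurons. Cpsf6 had a DF of 0.819 ± 0.305 (SD, n = 7) in dendrites and 0.897 ± 0.160 in somas (exact signed-rank test, p = 0.812). In the neurons compared, Cstf2 used end 1 almost alone, with a DF of 0.994 ± 0.0133 (SD, n = 8) in dendrites and 0.984 ± 0.0197 in somas (exact signed-rank test, p = 0.156). Without neuron 3 the difference passed p under 0.1 (0.0131, higher in dendrites in 6 of 7 neurons, exact signed-rank test, p = 0.0312). Among somas not compared, the DF of Cstf2 was 0.666 in neuron 15, 0.914 in neuron 7 and 0.929 in neuron 14. In the somas of neurons 8, 12, 13 and 16 it was between 0.999 and 1. Cstf3 spread most between neurons, from 0 to 1 in dendrites and from 0 to 0.938 in somas, with means of 0.517 ± 0.525 (SD, n = 6) and 0.277 ± 0.376 (exact signed-rank test, p = 0.438). The difference of 0.240 for Cstf3 became 0.476 without neuron 1, 0.0885 without neuron 9 and 0.0883 without neuron 11. In the dendrites of neuron 9, 1081 reads of Cstf3 lay on end 1 and 1 on end 5, while the soma of that neuron had 292 on end 5 and none on end 1. In neuron 14, both compartments had reads on end 5 (191 in dendrites and 135 in the soma) and none on end 1. The soma of neuron 14 also had 180 reads on end 4.

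Each 3′ end was also fitted as a feature of its own with edgeR, a setting chosen after seeing the data. Of the 28 ends of the members, 11 had reads in at least 16 libraries, and 3 were called higher in somas. Of 10652 ends tested, 16.9% were called higher in somas and 0.723% higher in dendrites, and the median log2 fold change was -2.14. The called ends were end 1 of Cpsf3 (log2 fold change -5.13, SE 1.78, adjusted p = 0.0424), end 2 of Cpsf6 (-5.79, SE 1.95, adjusted p = 0.0381) and end 1 of Cstf2 (-3.97, SE 1.37, adjusted p = 0.041). For Nudt21, the log2 fold change of end 1 was -0.39 (SE 0.98, adjusted p = 0.762), that of end 2 was -1.75 (SE 1.89, adjusted p = 0.471) and that of end 3 was -3.42 (SE 1.47, adjusted p = 0.0847).

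Whether the compartments differed by another amount after 3 rounds of amplification than after 2 was tested as an interaction in edgeR, which called 0 of 9 members and 0.0% of 10880 genes (with an unadjusted p under 0.05 in no member and in 288 genes). Among the members Cstf2 had the lowest p, with an interaction of 3.52 (SE 2.04, unadjusted p = 0.0901, adjusted p = 1, edgeR). In separate fits, the log2 fold change of Cstf2 was -4.49 (SE 1.35, adjusted p = 0.0463, edgeR) in the 12 neurons of 2 rounds and -0.76 (SE 1.14, adjusted p = 0.945) in the 4 of 3 rounds. Without the 4 neurons that had more nuclear RNA in dendrites, 3 members were called higher in somas, where 11.9% of genes were: Cstf2 (-3.83, adjusted p = 0.0327), Cpsf2 (-5.72, adjusted p = 0.0241) and Cpsf3 (-5.92, adjusted p = 0.0274). Without neurons 15 and 16 none was called, where 0.928% of genes were, and Cstf2 was at -2.89 (SE 0.92, adjusted p = 0.0915).

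Other settings are given with the share of all genes they called higher in somas. DESeq2 called 6 members (Cpsf1, Cpsf2, Cpsf3, Cpsf6, Cstf2 and Pcf11) and 46.2% of all genes higher in somas, and edgeR with DESeq2 size factors called 3 (Cpsf2, Cpsf3 and Cstf2) and 9.26%. In the 12 neurons of 2 rounds, Cstf2 was called with 3.25% of genes, and in the 4 neurons of 3 rounds no member was called with 0.0092%. No member was called by edgeR with dendrites rescaled to a median fold change near 0 (0.846% of genes), without a filter on low counts (0.46%), with at least 10 reads in at least 16 libraries (2.55%) or without the block for neuron (0.708%). On exon counts, edgeR called no member without the block (0.459% of genes), in the neurons of 2 rounds (0.755%) or in those of 3 rounds (0.0%), and it called Cpsf3 in neurons 3 to 16 with TMM scaling (6.07%).

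Other genes of 3′ end formation were counted in 4 lists. Of 10 other core factors tested, 0 were called by edgeR, though 5 had an unadjusted p under 0.05, all with the higher level in somas, and the median log2 fold change was -2.49. The smallest p belonged to Papola, the nuclear poly(A) polymerase (-3.26, SE 1.10, adjusted p = 0.0588), Cstf1, the remaining stimulation factor subunit (-4.73, SE 1.66, adjusted p = 0.0669), and Rbbp6, a cofactor of the cleavage complex (-3.62, SE 1.35, adjusted p = 0.0785). Symplk was not analysed here. Of the Integrator pair related to the CPSF nuclease module, Cpsf3l, the nuclease paralog of Cpsf3, was called higher in somas and Ints9 was not (-1.10, SE 1.49, adjusted p = 0.609). Cpsf3l had no reads in 12 dendrites, up to 41 in the others and between 0 and 1072 in somas (median 189). The dendrites of neuron 5, with those 41 reads, were the only ones with at least 10. The log2 fold change of Cpsf3l was -7.43 (SE 1.53, adjusted p = 0.00803), at percentile 0.06 of all genes tested, and the call held without any 1 neuron (adjusted p from 0.00353 to 0.019) and on exon counts (-5.87, adjusted p = 0.0185).

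Among the histone pre-mRNA factors, Lsm10, a subunit of the U7 particle, was called higher in somas (-5.97, SE 1.92, adjusted p = 0.0491), with reads in 12 somas (up to 536) and 4 dendrites (up to 46). That call was lost in 12 of the 16 fits that left out 1 neuron, where the adjusted p reached 0.13, and on exon counts (adjusted p = 0.0712). Lsm11 (-1.56, SE 1.12, adjusted p = 0.324) and Slbp (-1.87, SE 1.19, adjusted p = 0.269) were not called, and Zfp473 had reads in too few libraries for the test. None of the U1 particle proteins was called by edgeR (0 of 3, and 0 at an unadjusted p under 0.05), and their log2 fold changes were -1.91 for Snrnp70, -2.64 for Snrpa and -1.73 for Snrpc.

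The genes whose level followed the mean of the members most closely over the 16 somas were 2310003H01Rik, Fam214b, AK039132, Tsnax and Arglu1. Their Pearson r with the mean log2(CPM + 1) of the 10 members ran from 0.852 to 0.883 and their Spearman rho from 0.409 to 0.801. They were picked as the highest of 10853 genes, whose median r was 0.114, so no p is given, and the points share the depth and amplification of each library. The mean of the members was lowest in the soma of neuron 15 (2.01) and highest in that of neuron 16 (5.05).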

How the data were processed

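Reads had been trimmed, aligned to mm10 with STAR (2.4.0 in the submitters' processing notes) and assigned to features with VERSE by the authors, who used uniquely mapped reads, and the deposited values are raw read counts without normalization. The deposited counts cover the union of 3′UTR regions of each gene, single 3′ ends (the last 500 nt, with closer ends merged) and exons with 92 ERCC rows; the exon annotation is not given in the sources used here. Libraries were strand-specific and were sequenced on either of 2 instruments, not assigned to libraries in the labels. The members and lists were chosen with earlier results of these data known.

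Counts were tested with edgeR 4.0.16 in R 4.3.3 (TMM, robust quasi-likelihood fit, neuron as a block, genes with 1 or more reads in 16 or more libraries, Benjamini-Hochberg adjustment over all genes). DESeq2 1.42.0 was an alternative. An SE is the log2 fold change divided by the root of F. Distal fractions were compared with an exact signed-rank test. Other values used Python 3.11.15, pandas 2.3.3 and SciPy 1.17.1. Depth was 646521 to 21169974 reads on 3′UTRs, and the precision of a value came from the spread between neurons. Tests were tried on simulated data.

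Named genes were all members, the called genes and up to 3 genes of smallest p of each wider list, and the 5 genes most alike in somas. Pairing comes from the cells. The correlation across genes of deviations from compartment means was 0.0887 ± 0.0772 (SD, n = 16) within a neuron and -0.00559 ± 0.0526 (SD, n = 240) between neurons. Alternatives covered test, scaling, filters, block, feature, rounds and neurons left out.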

Additional observations from a re-analysis of the deposited data

How the results depend on the processing

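The number of members called, 1 in the analysis reported, changed with most settings. It was 6 with DESeq2 (which called 46.2% of all genes higher in somas), 3 with DESeq2 size factors in edgeR, and 0 with dendrites rescaled to a median fold change near 0, without a filter on low counts, with at least 10 reads in at least 16 libraries, without the block for neuron, on exon counts and in the 4 neurons of 3 rounds. Leaving out 1 neuron gave 0 to 3. Of the settings chosen after seeing the data, ends as features and the neurons without more nuclear RNA in dendrites both gave 3, and the neurons without shallow dendrites 0. Calls in the wider lists, 2 as reported, were 16 with DESeq2, 0 with at least 10 reads, with no replicate block and with 3 rounds, and 1 with the rescaled dendrites, no filter, 2 rounds, exon counts and without shallow dendrites, and 1 to 3 without 1 neuron. Members called on exons, 0 as reported, were 6 with DESeq2, 7 with ERCC scaling and 1 with TMM in the same neurons. The cause of these changes was not tested.

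Among the members and the wider-list genes given with a fold change, signs turned for genes that were not called. Cpsf4 had log2 fold changes of 0.27 (DESeq2), 1.23 (rescaled), 1.36 (no block), 1.11 (2 rounds), 0.33 (exons) and 0.90 (without shallow dendrites), and -0.69 to 0.73 without 1 neuron. Nudt21 had 1.39 (rescaled), 0.23 (at least 10 reads), 1.04 (no block), 1.30 (3 rounds) and 0.41 (without shallow dendrites), and -0.31 to 0.41 without 1 neuron. Cstf3 turned to 0.0875 (rescaled) and 0.30 (no block), on exons without the block Cpsf1 was at 0.19, Cstf3 at 0.65 and Pcf11 at 0.07, and Ints9 turned to 0.32 (rescaled) and Snrpa to 0.70 (3 rounds). The DF difference of Cpsf6 turned to 0.0787 with at least 20 reads, and to 0.0335 with reads pooled, and ran from -0.166 to 0.0473 without 1 neuron, turning without neuron 1. That of Nudt21 weakened to 0.106 with at least 20 reads and kept its side of p under 0.1 without any 1 neuron (0.119 to 0.177). Pairs of member and neuron detected in dendrites rose from 68 to 106 at 1 read. Depth limits Cpsf4 and Clp1 most, since either had 10 or more reads in few libraries, and a value of 0 there was not shown to be absence.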

Other observations

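A pair of values from the wider lists belongs to no comparison above and was picked after the values were seen. Ssu72, a phosphatase of the cleavage complex, had 2116 reads in the dendrites of neuron 15, the library with the fewest genes, where Nudt21 was the only member with at least 10 reads. Papolg, a second nuclear poly(A) polymerase, had a lower distal fraction in dendrites than in the soma in 4 of 5 neurons and a higher one in none (difference -0.8 ± 0.447, SD, n = 5, two-sided exact signed-rank test, p = 0.125, which is the lowest possible with 4 unequal pairs).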
